A study of Mus musculus with 10 samples.

Results

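The genes described here mark the resident macrophages of the liver and the leukocytes that circulate through it. They are 32 genes, chosen by name, of 18193 genes measured in the series, and every probe set of the array whose gene symbol equals one of the names was taken. They fall into 12 Kupffer cell and tissue macrophage genes, 7 myeloid genes, the pan-leukocyte gene Ptprc, 8 T and NK cell genes and 4 B cell genes. All 32 had a probe set, but that of Klrb1c is shared with Klrb1b, so 31 entered the tests. The members had 61 probe sets, of which 56 carry the member's symbol alone.

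The samples are whole livers of 10 male B6C3F1/Crl mice, offspring of C57BL/6 males and C3H/He females, 29 to 32 days old when received and given 5 days to settle. In the phenobarbital group 5 mice had 0.05% (w/v) phenobarbital in their drinking water for 28 days. The control group held 5 mice. Phenobarbital is a barbiturate that activates the nuclear receptor CAR in hepatocytes, and in rodents it promotes liver tumours although it is not genotoxic. By the series title, the arrays belong to work on 5-hydroxymethylcytosine in the liver after a non-genotoxic carcinogen.

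Kupffer cells line the liver sinusoids and clear particles, bacteria and aged red cells from portal blood with scavenger, complement and phosphatidylserine receptors. They keep themselves by local division under the growth factor receptor Csf1r, and when they are lost, monocytes that leave the bone marrow through the chemokine receptor Ccr2 can take their place. Mouse liver also holds T cells, many NK cells and fewer B cells, whose RNA is a small part of that of the whole organ. Values are log2 expression levels per probe set, and a difference is the phenobarbital mean minus the control mean on that scale. In whole tissue, fewer cells of a type and less RNA per cell cannot be told apart.

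The arrays differed in their spike-ins, the bacterial RNAs added to every sample. The mean of 24 poly-A spike-in probe sets was 6.16 ± 0.33 in the phenobarbital group and 7.91 ± 0.90 in the control group (SD, n = 5 each; exact two-sided permutation test p = 0.0238, Benjamini-Hochberg adjusted over 8 array measures 0.0317). It was low on all 5 phenobarbital arrays and on that of control animal 4, and high on the other 4 control arrays. The spike-ins for hybridisation averaged 10.66 ± 0.09 in the phenobarbital group and 11.01 ± 0.24 in the control group (adjusted 0.0363 by the same test). For 18S rRNA the means were 13.35 ± 0.46 and 13.96 ± 0.18 in the same order (adjusted 0.0317). The median and upper quartile of the arrays differed by -0.03 and -0.10 (adjusted 0.0317 each). The signal of the 3' end of Actb over its 5' end, a measure of RNA integrity and labelling length, was 1.25 ± 0.06 in the phenobarbital group and 1.54 ± 0.18 in the control group, and 1.28 on the array of control animal 4. The same measure for Gapdh was -0.25 ± 0.03 in the phenobarbital group and -0.11 ± 0.05 in the control group (exact two-sided permutation test p = 0.00794, adjusted 0.0317), and there control animal 4, at -0.15, lay with the other controls. With the spike-in split entered as a block, a difference rests on the 5 phenobarbital animals against control animal 4 alone, and 143 of 18193 genes were called (0.786%). That value is given for each called member, and for a further gene where it moved the difference by about 1.5 times or more.

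Of the 31 genes tested, 4 passed an adjusted p of 0.05 (limma, two-sided, Benjamini-Hochberg over all genes), which is 12.9%. Of all 18193 genes 3692 passed, or 20.3%, so these genes changed no more often than the array as a whole. Ighm and Ccr2 rose, where 9.02% of all genes did, and Cd163 and Timd4 fell, where 11.3% of all genes did. The median difference was -0.01 over the 31 genes and 0.008 over all genes, and the median absolute difference was 0.158 against 0.132. The 27 genes that did not pass had 95% intervals between -0.51 and 0.51, inside 1.5-fold (0.585 on the log2 scale) in either direction. This holds for the probe set used for each gene, on all 10 animals and without the block. Other probe sets of Cd8a (0.18 to 0.84), Ptprc (-0.09 to 0.59) and C1qb (-0.59 to -0.03) reached beyond it. Those of Cd8a and Ptprc had means below the lower quartile of the arrays. Of the 31 genes 4 had means below that quartile on the probe set used, where a level is hard to tell from background. The plot of levels by animal has its strongest contrast between the groups in the rows of Ighm and Cd163.

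**Figure D1:**
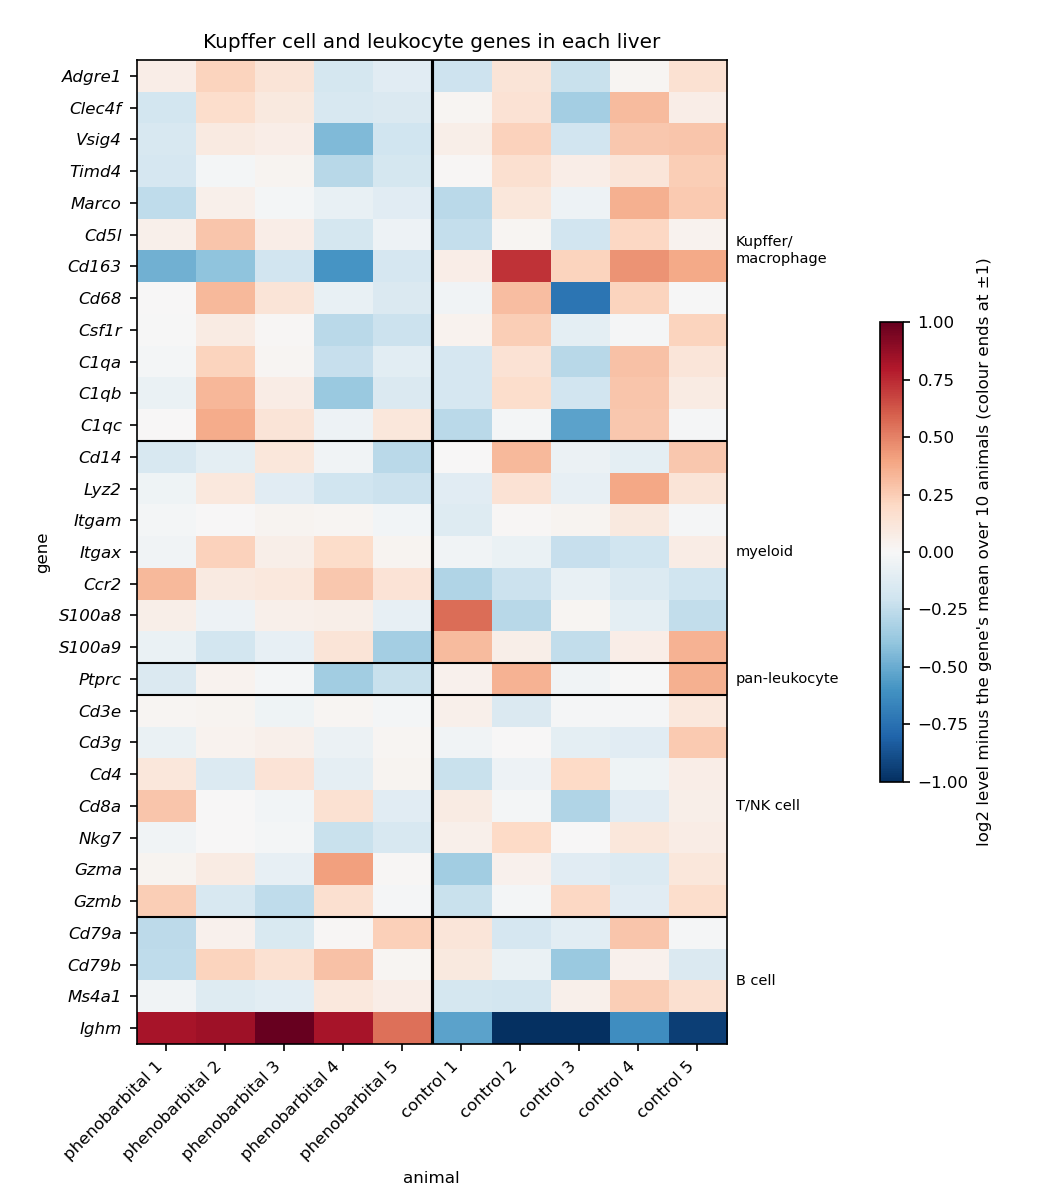
Log2 level of each of 31 genes in each of 10 livers, minus the gene's own mean over the 10 animals (colour ends at ±1). Columns are the 5 phenobarbital and the 5 control animals, and rows are grouped by cell class. Ighm was high in all 5 phenobarbital livers and Cd163 was low in all 5.

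Among the Kupffer cell and macrophage genes, Cd163 had the largest fall. Cd163 is the scavenger receptor for haemoglobin bound to haptoglobin. It had 6.44, 6.52, 6.73, 6.33 and 6.75 in the phenobarbital livers, against 6.99, 7.64, 7.14, 7.37 and 7.30 in the control livers. The groups did not overlap, which held for 12.9% of all genes (7.21% with the phenobarbital group lower). The means were 6.55 ± 0.18 and 7.29 ± 0.25, a difference of -0.73 (SE 0.12, 95% interval -0.99 to -0.48, adjusted p = 0.00193 by limma), or 1.66-fold lower. Against control animal 4 the difference was -0.82, with an adjusted p of 0.121 with the block.

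Timd4, the phosphatidylserine receptor that marks long-lived resident Kupffer cells, fell by a smaller amount. It had 5.95, 6.10, 6.14, 5.84 and 5.94 in the phenobarbital livers, against 6.13, 6.28, 6.18, 6.24 and 6.36 in the control livers. The ranges touch, since phenobarbital animal 3 lay above control animal 1. The difference was -0.24 (SE 0.07, 95% interval -0.40 to -0.08, adjusted p = 0.0345 by limma), or 1.18-fold lower. The call was lost when any of 6 of the 10 animals was left out (phenobarbital 1, 4 or 5, control 2, 3 or 5), with differences between -0.28 and -0.21 over all 10 omissions. It was also lost with the block, at -0.25 and an adjusted p of 0.449, after quantile normalisation, at -0.18 and 0.0992, and after median centring, at -0.21 and 0.0591.

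The complement receptor Vsig4, a further marker of resident Kupffer cells, did not pass. It had 9.04, 9.29, 9.27, 8.76 and 9.0 in the phenobarbital livers, against 9.26, 9.43, 9.01, 9.47 and 9.48 in the control livers. Its difference was -0.26 (95% interval -0.51 to -0.01, adjusted p = 0.130 by limma), and the groups overlapped, with control animals 1 and 3 among the phenobarbital animals.

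The other marker that in mice is nearly restricted to Kupffer cells, the galactose-binding lectin Clec4f, had 8.99, 9.35, 9.27, 9.01 and 9.03 in the phenobarbital livers, against 9.19, 9.32, 8.83, 9.49 and 9.24 in the control livers. The lowest animal of all was control 3, and the difference was -0.08 (95% interval -0.33 to 0.16, adjusted p = 0.637 by limma). Adgre1, which encodes the adhesion receptor long used to stain mouse macrophages, had 7.73, 7.89, 7.79, 7.49 and 7.55 in the phenobarbital livers, against 7.46, 7.79, 7.44, 7.68 and 7.82 in the control livers. Its difference was 0.05 (95% interval -0.16 to 0.27, adjusted p = 0.746 by limma).

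The promoters of the 3 called myeloid-lineage genes that the RefSeq table holds (build GRCm38.p6), with that of Clec4f for comparison, show the letters next to the start sites of a receptor that fell strongly, one that fell slightly, one that rose and one that did not pass. Each is the 250 bases before the annotated start, 5′ to 3′ on the gene's strand: Cd163 at chr6:124304401-124304650 on the plus strand, Timd4 at chr11:46810549-46810798 on the plus strand, Ccr2 at chr9:124101933-124102182 on the plus strand and Clec4f at chr6:83656117-83656366 on the minus strand. Capitals mark matches to AGAACA, a half-site of the glucocorticoid receptor, searched on both strands, since glucocorticoids are known inducers of Cd163 in monocytes.
Cd163: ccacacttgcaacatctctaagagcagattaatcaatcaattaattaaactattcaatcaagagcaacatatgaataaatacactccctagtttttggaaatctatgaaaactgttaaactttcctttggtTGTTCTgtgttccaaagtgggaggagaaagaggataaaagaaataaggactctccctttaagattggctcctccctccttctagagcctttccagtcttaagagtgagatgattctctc
Timd4: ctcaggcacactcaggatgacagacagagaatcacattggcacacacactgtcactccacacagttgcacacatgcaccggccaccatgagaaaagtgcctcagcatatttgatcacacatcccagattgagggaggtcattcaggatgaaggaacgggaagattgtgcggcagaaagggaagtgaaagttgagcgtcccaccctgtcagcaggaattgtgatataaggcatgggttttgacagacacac
Ccr2: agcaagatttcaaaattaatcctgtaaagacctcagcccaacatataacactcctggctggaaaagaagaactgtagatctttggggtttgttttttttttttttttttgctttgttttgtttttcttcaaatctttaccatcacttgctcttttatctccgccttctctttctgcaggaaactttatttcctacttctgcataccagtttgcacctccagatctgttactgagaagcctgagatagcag
Clec4f: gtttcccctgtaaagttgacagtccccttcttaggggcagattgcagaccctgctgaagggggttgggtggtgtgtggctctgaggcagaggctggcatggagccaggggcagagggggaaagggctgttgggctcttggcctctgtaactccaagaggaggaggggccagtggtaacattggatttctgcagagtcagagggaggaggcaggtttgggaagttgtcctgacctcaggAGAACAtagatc
Cd163 held the half-site once, on the opposite strand and 119 bases before the start, and Clec4f held it once, 12 bases before the start. Timd4 and Ccr2 held none in this window. The half-site was present in 5284 of 32851 promoters of the same length (16.1%). Any part of the half-site or of glucocorticoids in the differences of these genes was not tested. GAGGAA, a form of the site bound by the macrophage factor PU.1, was in none of the 4 windows and in 7639 of all promoters (23.3%). Shorter and other forms of that site were not searched.

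The remaining macrophage genes did not pass. Those for the 3 chains of complement C1q, made in the liver chiefly by macrophages, had differences of -0.04 (C1qa), -0.07 (C1qb) and 0.23 (C1qc), with adjusted p of 0.815, 0.734 and 0.240 by limma. The 2 other probe sets of C1qb differed by -0.19 and -0.31, with adjusted p of 0.173 and 0.111 over all probe sets. C1qa had 9.29, 9.53, 9.33, 9.08 and 9.20 in the phenobarbital livers, against 9.14, 9.45, 9.03, 9.60 and 9.43 in the control livers, and the 2 groups interleaved. Csf1r, the receptor for the growth factors that sustain macrophages, averaged 10.16 ± 0.15 in phenobarbital livers and 10.32 ± 0.15 in control livers (difference -0.16, adjusted p = 0.234), and its 2 other probe sets differed by 0.02 and 0.14.

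Cd5l, an apoptosis inhibitor secreted by macrophages, averaged 10.38 ± 0.17 in phenobarbital livers and 10.31 ± 0.18 in control livers. Marco, a scavenger receptor for bacteria, averaged 5.80 ± 0.12 and 5.97 ± 0.25 in the same order, a difference of -0.17, while its second probe set differed by 0.14. Cd68, a lysosomal glycoprotein of phagocytes, averaged 6.61 ± 0.18 in phenobarbital livers and 6.52 ± 0.41 in control livers. The wide control spread of Cd68 came with 5.83 in control animal 3, against 6.53 to 6.87 in the other 4 controls.

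**Figure D2:**
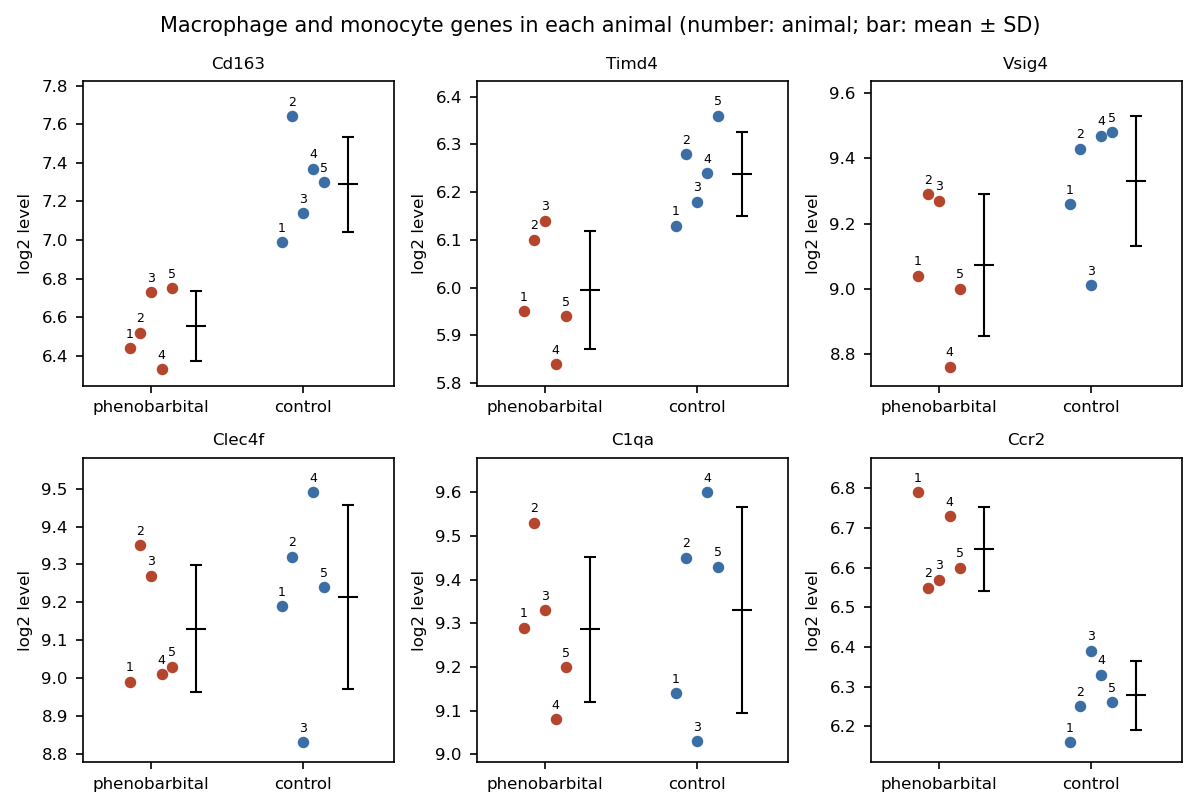
Log2 level of 6 macrophage and monocyte genes in each of 5 phenobarbital and 5 control livers (points numbered by animal, bars mean ± SD, each panel with its own axis). Cd163 and Ccr2 separate the groups in opposite directions, Timd4 nearly does, and Clec4f and C1qa interleave.

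Many of the macrophage genes had the same highest or lowest animal within a group. In the phenobarbital group animal 2 had the highest value of its group for 10 of the 12 genes and animal 4 the lowest for 9, while these animals were highest or lowest in their group for 19.9% and 19.1% of all genes. Cd163 was instead highest in phenobarbital animal 5 and Timd4 in animal 3. In the control group animal 3 was lowest for 8 of the 12 genes (24.9% of all genes) and animal 1 for 4 (18.6%). The highest values there were more spread, with animal 4 highest for 6 (29.9%) and animals 2 and 5 for 3 each (15.7% and 16.8%). The mean over the 12 genes was 8.18, 8.43, 8.33, 8.04 and 8.16 in the phenobarbital livers, against 8.19, 8.48, 8.07, 8.52 and 8.44 in the control livers. The group means of 8.23 ± 0.15 and 8.34 ± 0.20 differed by -0.11, less than the spread between animals. Without Cd163 they were 8.38 ± 0.16 and 8.43 ± 0.20, a difference of -0.05. Against control animal 4, the control with the highest mean, the difference was -0.29.

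Cd163 also differed relative to the other macrophage genes of the same animal. Its level minus the mean of the other 11 macrophage genes was -1.90, -2.08, -1.74, -1.87 and -1.54 in the phenobarbital livers, against -1.31, -0.92, -1.02, -1.25 and -1.24 in the control livers. The groups did not overlap on this measure either. No test is given for it, because it was formed after the values of Cd163 were known.

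**Figure D3:**
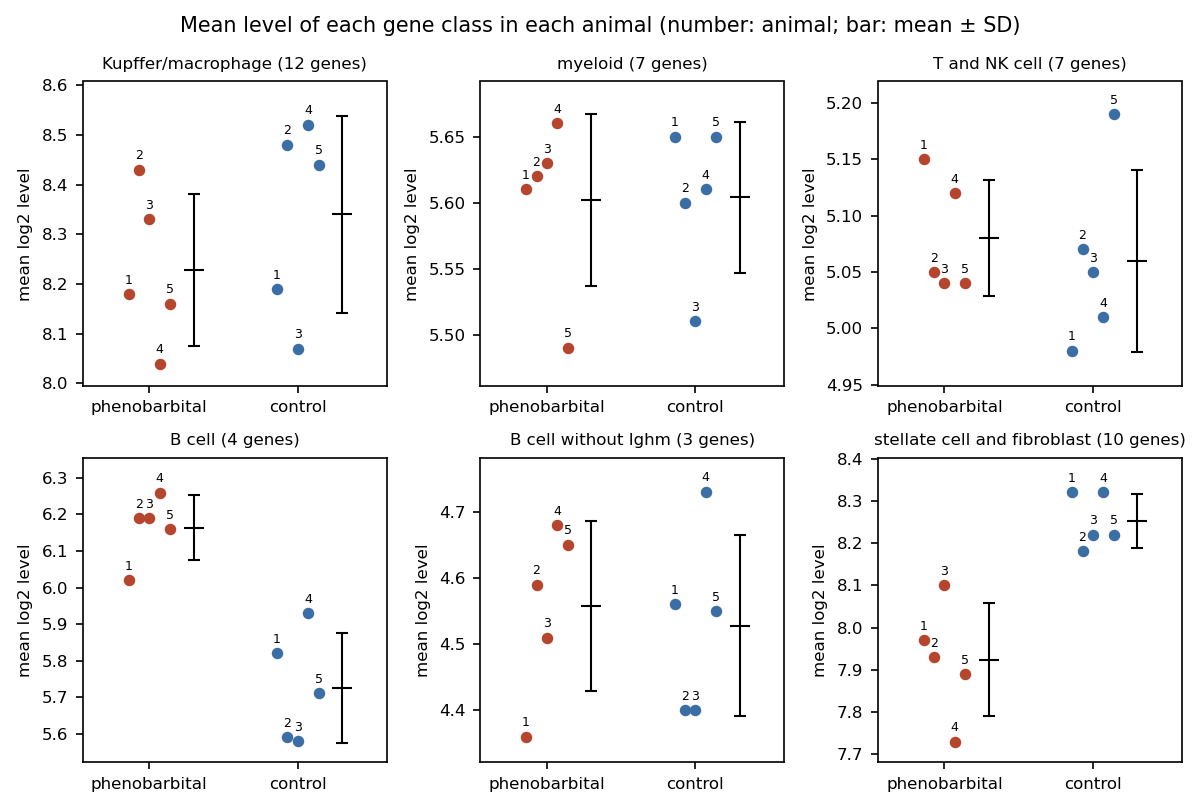
Mean log2 level of each gene class in each of 5 phenobarbital and 5 control livers (points numbered by animal, bars mean ± SD, each panel with its own axis). The groups overlap for the macrophage, myeloid, and T and NK cell classes. The B cell class separates them with Ighm and not without it, and the stellate cell and fibroblast genes lie lower in all 5 phenobarbital livers.

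Of the 7 myeloid genes, Ccr2 passed the test. Ccr2 is the receptor for the chemokine Ccl2 and marks classical monocytes. It had 6.79, 6.55, 6.57, 6.73 and 6.60 in the phenobarbital livers, against 6.16, 6.25, 6.39, 6.33 and 6.26 in the control livers. The groups did not overlap (5.73% of all genes were separated with the phenobarbital group higher). The difference was 0.37 (SE 0.07, 95% interval 0.22 to 0.52, adjusted p = 0.00418 by limma), or 1.29-fold higher. The call rests on 1 of 4 probe sets, since the others differed by 0.05, 0.08 and 0.14 and did not pass. Those others had means of 3.5 to 4.19, near or below the lower quartile of the arrays (4.13 to 4.20). A level there is hard to tell from background. With the mean of the 4 the difference was 0.16 with an adjusted p of 0.0548 by limma. Against control animal 4 the difference was 0.32, with an adjusted p of 0.281 with the block.

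The other 6 myeloid genes did not pass. Lyz2, the lysozyme of monocytes and macrophages, averaged 9.02 ± 0.13 in phenobarbital livers and 9.21 ± 0.20 in control livers (difference -0.19, adjusted p = 0.198 by limma), and Cd14, the coreceptor for endotoxin, 6.09 ± 0.14 and 6.27 ± 0.20 (-0.18, adjusted p = 0.217). Itgax, the integrin CD11c of dendritic cells and some macrophages, had 4.93, 5.20, 5.03, 5.15 and 5.00 in the phenobarbital livers, against 4.93, 4.90, 4.74, 4.77 and 5.04 in the control livers. Its difference was 0.19, with an adjusted p of 0.104. Its values overlapped, with control animal 5 among the phenobarbital animals.

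The neutrophil alarmins S100a8 and S100a9 had differences of 0.02 and -0.22, with adjusted p of 0.939 and 0.196 by limma. S100a8 had 3.84 to 3.98 in the phenobarbital livers and 3.64 to 4.48 in the control livers, with control animal 1 the highest. Itgam, the integrin CD11b of myeloid cells, averaged 3.76 in both groups. Itgam and S100a8 had means below the lower quartile of the arrays, where a level is hard to tell from background. The class mean was 5.60 ± 0.06 in phenobarbital livers and 5.60 ± 0.06 in control livers.

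Ptprc, which encodes the leukocyte common antigen CD45, had 7.33, 7.51, 7.46, 7.13 and 7.25 in the phenobarbital livers, against 7.52, 7.82, 7.44, 7.47 and 7.83 in the control livers. The groups overlapped, and the difference of -0.28 missed the threshold (95% interval -0.50 to -0.06, adjusted p = 0.0649 by limma). It passed without control animal 4 (-0.32, adjusted p = 0.0448). A second, dimmer probe set went the other way, at 0.25 with an adjusted p of 0.283 over all probe sets by limma. Its means of 3.54 in phenobarbital livers and 3.29 in control livers lay below the lower quartile of the arrays, where a level is hard to tell from background.

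None of the 7 T and NK cell genes tested passed in limma, and Nkg7 was the 1 gene whose unadjusted p was under 0.05. The T cell receptor chains Cd3e and Cd3g differed by 0.00 and -0.01, and Cd3g had a mean below the lower quartile of the arrays. Cd3e had 5.86 to 5.93 in the phenobarbital livers and 5.76 to 6.01 in the control livers. Cd4, the coreceptor of helper T cells, averaged 6.30 in phenobarbital livers and 6.28 in control livers, and its second probe set differed by 0.22 without passing. Cd8a, the coreceptor of cytotoxic T cells, averaged 5.71 ± 0.16 in phenobarbital livers and 5.59 ± 0.16 in control livers (difference 0.12, adjusted p = 0.393). One of its 4 other probe sets, at 3.96 ± 0.17 in phenobarbital livers and 3.45 ± 0.37 in control livers, had a difference of 0.51 and an adjusted p of 0.0365 over all probe sets, of which 18.7% passed. Both means of that probe set lay below the lower quartile of the arrays, where a level is hard to tell from background. Averaged over its 5 probe sets, Cd8a passed at 0.19 (adjusted p = 0.0296 by limma).

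Nkg7, a protein of cytotoxic granules, averaged 4.70 ± 0.10 in phenobarbital livers and 4.88 ± 0.08 in control livers (difference -0.17, adjusted p = 0.0809 by limma). The granzymes Gzma and Gzmb, which cytotoxic cells use to kill their targets, differed by 0.18 and -0.01. The probe set shared by Klrb1c, the NK cell receptor NK1.1, and Klrb1b had 5.93, 5.92, 5.79, 5.81 and 5.73 in the phenobarbital livers, against 5.98, 5.74, 5.58, 5.83 and 5.92 in the control livers, and the groups interleaved. The mean over the 7 genes was 5.08 ± 0.06 in phenobarbital livers and 5.06 ± 0.08 in control livers. No shift of T and NK cell genes was detectable beyond the spread between animals, but 4 of the 7 had means below the array medians.

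Ighm, which encodes the constant region of the IgM heavy chain, had the largest difference of all 31 genes. It had 10.98, 11.00, 11.24, 10.98 and 10.70 in the phenobarbital livers, against 9.62, 9.15, 9.12, 9.53 and 9.21 in the control livers. Every phenobarbital animal lay more than 1 log2 unit above every control animal. The difference was 1.65 (SE 0.12, 95% interval 1.40 to 1.91, adjusted p = 2.17e-06 by limma), or 3.15-fold higher, and it ranked 30 among the rises of all genes. Averaged over the probe sets of Ighm the difference was 0.35 (adjusted p = 0.00202 by limma). The brightest single-transcript probe set gave -0.15 (adjusted p = 0.289). Its means of 4.46 in phenobarbital livers and 4.60 in control livers lay below every array median (5.42 to 5.50). For the main probe set, leaving out each animal in turn gave 1.59 to 1.73, each still called. Against control animal 4 the difference was 1.45 with an adjusted p of 0.00449, and Ighm was the only one of the 31 genes still called with the block (6 had an unadjusted p under 0.05).

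The rise was read by 2 of the 11 probe sets that carry the symbol Ighm alone. The second had 9.35, 9.53, 9.64, 9.51 and 9.17 in the phenobarbital livers, against 7.67, 7.15, 7.20, 7.53 and 7.27 in the control livers, a difference of 2.08 (SE 0.12, adjusted p = 3.99e-07 over all probe sets by limma). The animals kept the same broad order on both, with phenobarbital animal 3 highest and control animals 2 and 3 lowest. The other 9 differed by -0.15 to 0.22 and did not pass. Apart from 2 of them, at 6.06 and 6.82 in phenobarbital livers, their means of 3.61 to 4.60 lay below every array median. Of 4 probe sets shared with other immunoglobulin genes 1 passed, at 0.38 (adjusted p = 0.017 by limma). The constant and variable segments of immunoglobulin genes share sequence between family members and rearrange between cells, so which transcripts each of these probe sets reads is not settled here.

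**Figure D4:**
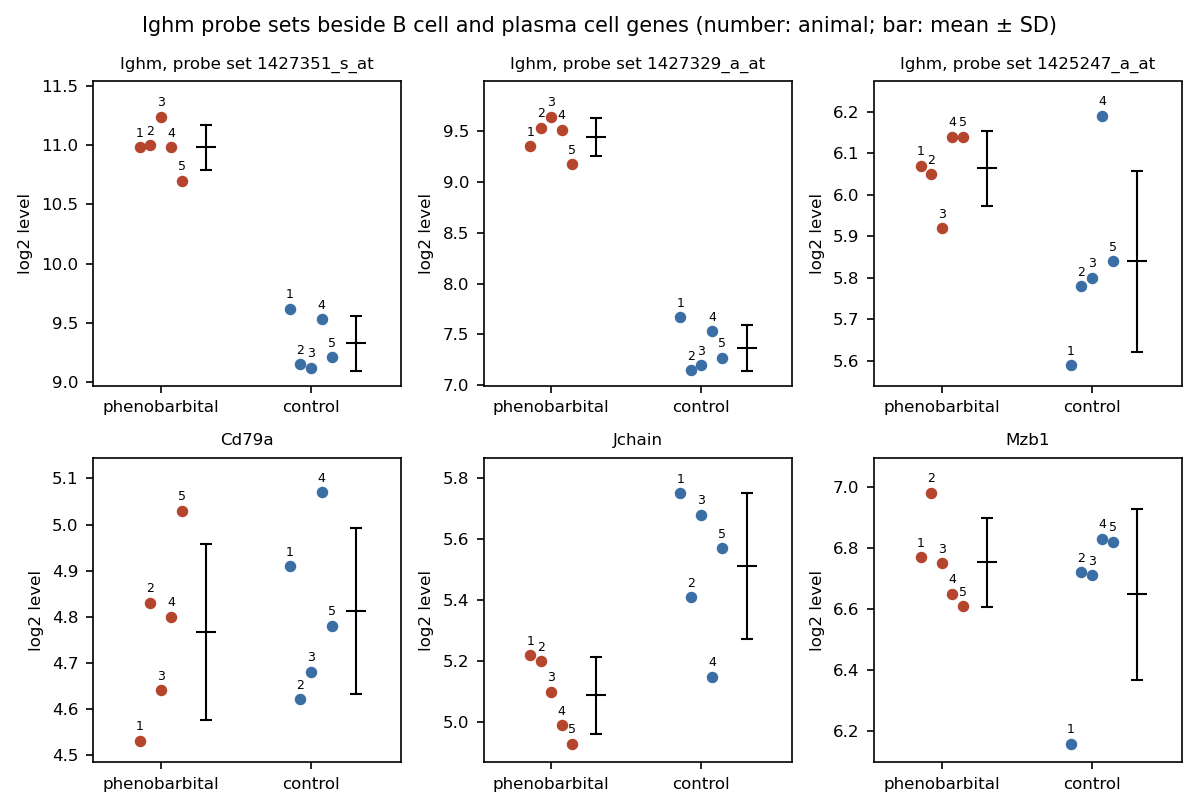
Log2 level of 3 Ighm probe sets and of Cd79a, Jchain and Mzb1 in each of 5 phenobarbital and 5 control livers (points numbered by animal, bars mean ± SD, each panel with its own axis). The 2 brightest Ighm probe sets separate the groups by over 1 log2 unit, the third does not separate them, and none of Cd79a, Jchain and Mzb1 was higher in all 5 phenobarbital livers.

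The other 3 B cell genes did not pass. Cd79a and Cd79b, the signalling chains of the B cell receptor, differed by -0.05 and 0.18, with adjusted p of 0.791 and 0.285 by limma. Cd79a had 4.53, 4.83, 4.64, 4.80 and 5.03 in the phenobarbital livers, against 4.91, 4.62, 4.68, 5.07 and 4.78 in the control livers, so the groups interleaved. Ms4a1, the surface antigen CD20, differed by -0.04, with a mean below the lower quartile of the arrays. The mean over the 4 B cell genes was 6.16 ± 0.09 in phenobarbital livers and 5.73 ± 0.15 in control livers, and without Ighm it was 4.56 ± 0.13 and 4.53 ± 0.14.

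Of 5 genes of antibody-secreting cells measured, Jchain fell and none rose. Jchain, which joins IgM and IgA into polymers, had 5.22, 5.20, 5.10, 4.99 and 4.93 in the phenobarbital livers, against 5.75, 5.41, 5.68, 5.15 and 5.57 in the control livers, and it fell by 0.42 (SE 0.11, adjusted p = 0.0165 by limma). Its low control value was that of animal 4, and against that animal the difference was -0.06 (adjusted p = 0.897 with the block). Mzb1, a chaperone of antibody assembly, averaged 6.75 ± 0.14 in phenobarbital livers and 6.65 ± 0.28 in control livers. The 3 probe sets that include the kappa light chain gene Igkc differed by 0.08, -0.22 and -0.44, the last with an adjusted p of 0.0301 over all probe sets, and the 3 of Igha, the IgA heavy chain, by 0.04, 0.17 and 0.20 without passing. The part of B cell or plasma cell number in the Ighm difference was not tested.

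**Figure D5:**
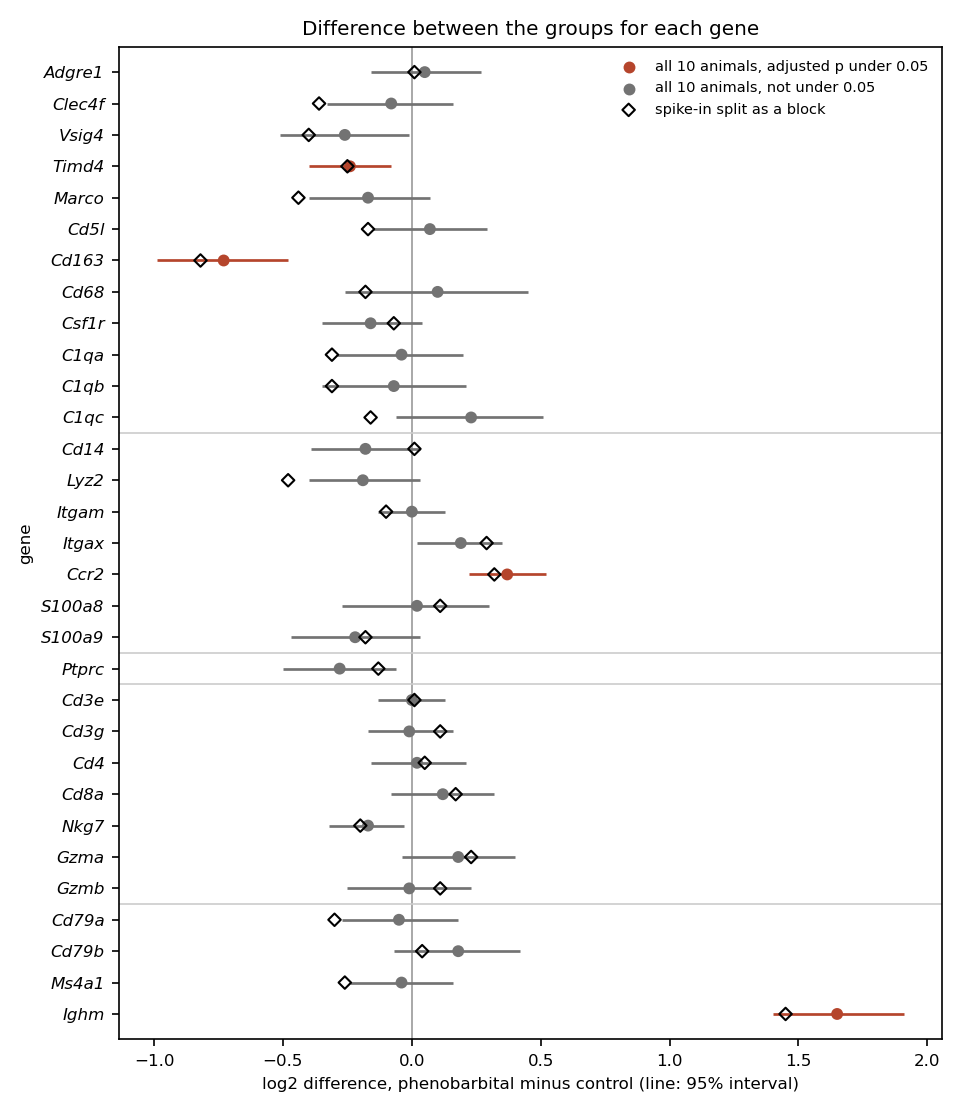
Difference in log2 level (phenobarbital minus control) for each of 31 genes, with its 95% interval over all 10 animals (circles, red where the adjusted p is under 0.05) and the difference with the spike-in split as a block (open diamonds). Ighm, Ccr2, Cd163 and Timd4 are the red circles, and the diamonds of most macrophage genes lie left of their circles.

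Further genes of the same cells came from 17 lists holding 196 genes, of which 175 were measured. The counts below stand beside the 9.02% of all genes that rose and the 11.3% that fell, 20.3% together. Among 19 phagocyte receptors and adaptors measured, 5 fell and 1 rose, with a median difference of -0.11 (all genes 0.008). Mertk, the receptor with which macrophages take up dying cells, had 7.57, 7.49, 7.49, 7.27 and 7.61 in the phenobarbital livers, against 8.05, 8.05, 8.01, 7.94 and 8.10 in the control livers. The groups did not overlap and the difference was -0.54 (SE 0.07, adjusted p = 0.00054 by limma). The mannose receptor Mrc1 fell by 0.40 (SE 0.09, adjusted p = 0.0104) and the inhibitory antibody receptor Fcgr2b fell by 0.57 (SE 0.10, adjusted p = 0.00281). Both are also made by liver sinusoidal endothelial cells. For Fcgr2b the brightest probe set made for a single transcript gave 0.17 and the average over its probe sets -0.19, neither called, so its direction depends on the probe set. Tlr2, a receptor for bacterial lipoproteins, rose by 0.32 (adjusted p = 0.0207), and differed by 0.11 from control animal 4.

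Of 11 macrophage transcription and growth factors measured, 1 rose and 2 fell, near the 20.3% of all genes called. Spic, the factor of macrophages that recycle iron from red cells, had 4.75 to 4.89 in the phenobarbital livers and 4.99 to 5.18 in the control livers. The groups did not overlap, and all these values lay below every array median (5.42 to 5.50). Spic fell by 0.30 (adjusted p = 0.00572 by limma), and by 0.18 averaged over its probe sets, still called. Zeb2, a factor that maintains Kupffer cell identity in mice, fell by 0.32 (adjusted p = 0.0165; -0.63 averaged over its probe sets, still called). Spi1, which encodes PU.1, rose by 0.31 (adjusted p = 0.0236), a call lost in 4 of the 10 omissions of an animal. Of 9 lysosome and iron genes, 3 fell and none rose. They were Slc40a1, the iron exporter ferroportin, at -0.46 (adjusted p = 0.00548; -0.27 against control animal 4), Laptm5 at -0.31 (adjusted p = 0.0142; -0.16 against control animal 4) and the lysosomal protease Ctsc at -0.30 (adjusted p = 0.0311). Averaged over its probe sets Laptm5 turned to 0.06, and a single-transcript probe set gave 0.81, while after quantile normalisation its call was lost at -0.21. Ctsc lost its call in 6 omissions and after median centring, at -0.26.

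Of 9 genes of antigen presentation by MHC class II, 2 rose and none fell, near the 20.3% of all genes called, and the median difference was 0.25. Cd74, the invariant chain that escorts MHC class II molecules, had 8.24, 8.49, 8.16, 8.18 and 8.31 in the phenobarbital livers, against 7.57, 7.70, 7.74, 7.88 and 7.71 in the control livers. The groups did not overlap, and the difference was 0.56 (SE 0.08, adjusted p = 0.00095 by limma). Cd40, the receptor for T cell help, rose by 0.25 (adjusted p = 0.0424), a call lost in 6 omissions and, at 0.04, when its probe sets were averaged. Limma called none of 7 dendritic cell genes, 0 of them with an unadjusted p under 0.05.

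Of 21 chemokines and chemokine receptors, 2 rose and 2 fell, near the 20.3% of all genes called. Ccl9, a chemokine for myeloid cells in mice, had 12.24, 12.20, 12.21, 12.45 and 12.36 in the phenobarbital livers, against 11.44, 11.45, 11.37, 11.74 and 11.33 in the control livers, a difference of 0.83 (SE 0.08, adjusted p = 7.2e-05 by limma). The groups did not overlap, and against control animal 4 the difference was 0.55 (adjusted p = 0.0529 with the block). The interferon-induced Cxcl10 rose by 0.60 (adjusted p = 0.0335), a call lost in 5 omissions, among them that of phenobarbital animal 4. Cxcl12, which retains leukocytes and is made by stromal cells, fell by 0.40 (adjusted p = 0.00326). Ccl6, a further myeloid chemokine in mice, fell by 0.36 (adjusted p = 0.0209), and the call was lost without control animal 2 and, at -0.25, after quantile normalisation. The difference of Ccl6 from control animal 4 was -0.60.

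Of 11 adhesion genes, 2 rose and 1 fell. Itga4, the integrin chain with which lymphocytes and monocytes bind Vcam1, had 6.57, 6.52, 6.50, 6.65 and 6.51 in the phenobarbital livers, against 6.06, 6.13, 5.79, 6.14 and 6.11 in the control livers, a difference of 0.50 (SE 0.08, adjusted p = 0.00128 by limma). The average over its probe sets gave 0.21, still called. The endothelial ligand Vcam1 rose by 0.22 (adjusted p = 0.029), but turned to -0.12 averaged over its probe sets and was 0.01 with a single-transcript probe set, and the endothelial selectin Selp fell by 0.33 (adjusted p = 0.0213), a call lost without phenobarbital animal 2 and, at -0.27, after quantile normalisation. The difference of Selp from control animal 4 was -0.55. Of 12 cytokines, Il18, which Kupffer cells make, fell by 0.43 (SE 0.08, adjusted p = 0.00418), without overlap between the groups, and differed by -0.26 from control animal 4. Il1b rose by 0.32 (adjusted p = 0.0375), a call lost in 7 omissions.

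Of 10 neutrophil genes, 2 rose. Lcn2, an iron-siderophore-binding protein that hepatocytes also secrete in the acute phase, had 6.53, 6.38, 6.04, 5.73 and 6.35 in the phenobarbital livers, against 5.24, 5.13, 5.43, 5.72 and 5.46 in the control livers, a difference of 0.81 (SE 0.15, adjusted p = 0.0033 by limma). The lowest phenobarbital value and the highest control value, that of control animal 4, were nearly equal, and against that control the difference was 0.49. Mmp8, the neutrophil collagenase, rose by 0.28 (adjusted p = 0.0253 by limma), a call lost in 4 omissions, and differed by 0.47 from control animal 4. Its means of 4.20 in phenobarbital livers and 3.92 in control livers lay near or below the lower quartile of the arrays (4.13 to 4.20). Of 19 further T and NK cell genes, 2 rose. The NK cell receptor Ncr1 rose by 0.38 (SE 0.09, adjusted p = 0.0125 by limma). Its means of 5.24 in phenobarbital livers and 4.86 in control livers lay below every array median. The costimulatory receptor Cd27 rose by 0.26 (adjusted p = 0.0435 by limma), a call lost in 7 omissions and, at 0.22, after quantile normalisation. Cd27 averaged 3.31 in phenobarbital livers and 3.05 in control livers. Both means lay below the lower quartile of the arrays, where a level is hard to tell from background.

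Of the 36 genes named from these lists and from the lists of other cells below, 23 kept their call in every omission of an animal. With the spike-in split as a block limma called none of the 36, and 16 had an unadjusted p under 0.05.

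The lists of other liver cells were read in the same way. Among 10 stellate cell and fibroblast genes, 5 fell and none rose (11.3% of all genes fell), and their mean was 7.73 to 8.10 in the phenobarbital livers and 8.18 to 8.32 in the control livers, without overlap (7.21% of single genes were separated with the phenobarbital group lower). Lrat, which stores retinol as esters in stellate cells, fell by 0.86 (adjusted p = 0.011 by limma), the growth factor receptor Pdgfrb by 0.67 (adjusted p = 0.0106), Hgf, the hepatocyte growth factor, by 0.58 (adjusted p = 0.0086) and the matrix proteoglycan Dcn by 0.55 (adjusted p = 0.00243). Pdgfrb lost its call with a single-transcript probe set, at -0.23 (adjusted p = 0.198). Hgf differed by -0.26 averaged over its probe sets, still called, and by -0.12 against control animal 4. Among 10 sinusoidal endothelial genes, 4 fell and none rose (Stab2 -0.41, Cdh5 -0.33, Clec4g -0.32 and Kdr -0.30), and their mean was 8.09 to 8.43 in the phenobarbital livers and 8.20 to 8.65 in the control livers. The last 3 of these calls were each lost in at least 5 omissions. The count of 4 became 1 after median centring, 2 after quantile normalisation, 2 with array weights and 0 with the block. Against control animal 4 Stab2 differed by -0.65, Cdh5 by -0.22 and Kdr by -0.11. Phenobarbital animal 4, lowest for 9 of the 12 macrophage genes, also had the lowest stellate cell mean.

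Of 5 blood cell genes 1 rose, the red cell haem enzyme Alas2 at 0.38 (adjusted p = 0.0135), with a difference of 0.07 against control animal 4. Of 5 cholangiocyte genes 1 rose, Epcam at 0.54 (adjusted p = 0.0123). Averaged over its probe sets Epcam differed by 0.18 (adjusted p = 0.0922), and against control animal 4 by 0.19. Limma called none of 6 hepatocyte genes, 0 of them with an unadjusted p under 0.05, with means of 14.24 to 14.30 in the phenobarbital livers and 14.27 to 14.33 in the control livers. The part of stellate, endothelial or blood cell RNA in the differences of Cd163, Timd4, Ccr2 and Ighm was not tested.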

How the data were processed

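Total RNA from the whole liver of 10 mice, 5 per group, was labelled by oligo(dT)-primed 3' in vitro transcription from 0.1 µg and hybridised to Affymetrix arrays, 1 animal per array, per the labels' protocols. The authors deposited log2 expression values for 45101 probe sets, from 2.34 to 15.13. GCOS was used, per the submitters' processing notes, while the probe summary and normalisation are not given in the sources used here. Array quartiles lay within 0.16 of each other, so the deposited values were used unchanged. Values near the bottom lie close to background.

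For each of 18193 genes the probe set of one gene symbol with the highest mean was used (platform annotation, 34945 such probe sets). 932 probe sets have several symbols and 9160 are unlisted. Groups were compared with limma 3.58.1 in R 4.3.3 (lmFit, eBayes, two-sided), with Benjamini-Hochberg adjustment over all genes and a threshold of 0.05. Array measures had exact two-sided permutation tests (smallest p 0.00794). The fit was tested on simulated data. The number of arrays limits the precision. Figures used matplotlib 3.10.9.

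The members and lists were chosen with earlier results of these data known. Of each further list up to 4 called genes with the largest difference are named. The result of 1 further list, of B cell genes, is not reported here. The alternatives were quantile normalisation, median centring, brighter genes, 3 other choices of probe set, 2 variance models, the replicate number or spike-in split as a block, the spike-in mean as a covariate, and leaving out each animal. The means without Cd163 and without Ighm were added after seeing the data.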

Additional observations from a re-analysis of the deposited data

Results flagged for a closer look

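None of the Kupffer cell and leukocyte genes was singled out. Of 144 sets of 5 animals tested, 7 had 1 animal far from the other 4 by Dixon's criterion (critical value 0.71), where chance gives about 1 in 20. In the phenobarbital group, animal 4 stood apart for Cxcl10, at 7.68 against 6.84 to 6.90 in the others, and for Dcn, at 10.75 against 11.14 to 11.25. Phenobarbital animal 1 stood apart for Cd27, at 3.06 against 3.32 to 3.41. In the control group, animal 2 was high for Fcgr2b, at 10.41 against 9.94 to 10.07, and for Mrc1, at 9.35 against 9.03 to 9.08. Control animal 3 was low for Itga4, at 5.79 against 6.06 to 6.14. Control animal 4, the one control with low spike-ins, was high for Alas2, at 10.86 against 10.43 to 10.53.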

How the results depend on the processing

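With the spike-in split as a block the calls over all genes fell to 143, and with the spike-in mean as a covariate to 129, against 3692. Members called fell to 1 in each, Ighm, at 1.45 with the block. 8425 of 45037 probe sets passed when tested singly. Leaving out 1 animal gave 2431 to 4610 gene calls (2431 without phenobarbital animal 2, 2460 without control animal 2, 4610 without control animal 4) and 3 to 5 members called. Of the calls, 44.4% were higher, against 31.8% among brighter genes, 58.8% with arrays centred on their medians and 60.0% after quantile normalisation.

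The macrophage class difference was -0.05 after quantile normalisation and -0.08 after median centring. It was -0.29 with the block and -0.29 with the covariate. That of the B cell class was 0.23 with the block, 0.20 with the covariate, 0.03 without Ighm, 1.65 among brighter genes, 0.12 averaged over probe sets, -0.01 with single-transcript probe sets and 0.27 with all probe sets. That of Ptprc was -0.01 with the mean of its probe sets, 0.25 with the single-transcript one and -0.01 over both singly. The single-transcript probe set of Ptprc had means below the lower quartile of the arrays. The difference of the myeloid class was 0.09 among brighter genes, and that of the T and NK cell class 0.10 with all probe sets. No T and NK cell gene was among the brighter genes.

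With single-transcript probe sets Ighm turned to -0.15 (at a level below the array medians), Fcgr2b to 0.17 and Laptm5 to 0.81. With the mean of probe sets Laptm5 was 0.06 and Vcam1 -0.12. These choices read other probes, and the cause was not tested. Cd163 was -0.82 with the block and -0.80 with the covariate (adjusted p 0.121 and 0.140), and Ccr2 0.32 and 0.35 (0.281 and 0.256). Over 21 alternatives the members' values stayed on their side of the threshold in 612 cases, lost a call in 16, gained one in 2 and reversed in 1. In 54 of the 612 a member called under neither setting changed sign. The replicate numbers did not pair the animals (correlations of deviations -0.02 to 0.12), and a fit with the replicate number as a block gave 3664 calls and 3 members called. Genes below the lower quartile are limited by their signal over background.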
